A study of Mus musculus with 12 samples.

Results

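The detoxifying enzymes of the nasal epithelium were examined in the OB of Tg2576 and WT mice as a list of 7 genes: the cytochrome P450s Cyp2g1, Cyp2a5, Cyp2f2 and Cyp1a2, the odorant-conjugating glucuronosyltransferase Ugt2a1, the carbonyl reductase Cbr2 and the aldehyde dehydrogenase Aldh3a1. They were picked by name, with earlier results of these arrays known, and 1 probeset stood for each gene, chosen by its mean over the 12 arrays. No probeset was annotated to Ugt2a1, so 6 of the 7 genes were measured, with 1 probeset each, among 19505 gene symbols on 22206 gene probesets. OB mRNA came from female Tg2576 mice, which carry human amyloid precursor protein with the Swedish familial mutation under the prion promoter, and from WT littermates, all on a C57BL/6/SJL background. The 4 groups were WT and Tg2576 mice of 2 months and WT and Tg2576 mice of 6 months, with 3 mice in each and 1 Affymetrix Mouse Clariom S array per mouse. Values are log2 intensities after RMA, so a difference of 1 is a doubling of signal.

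The nasal mucosa meets inhaled chemicals before any other tissue, and its supporting (sustentacular) cells and Bowman's glands hold large amounts of P450 enzymes. These oxidize odorants and toxicants, and glucuronosyltransferases, glutathione transferases, carbonyl reductases and aldehyde dehydrogenases then conjugate or further convert the products. The OB lies against the cribriform plate behind this mucosa and receives the axons of its olfactory sensory neurons, whereas the supporting and gland cells themselves stay in the nose. The bulb neurons expected in the labelled tissue were present on every array: the mean of 5 projection neuron markers lay between 10.6 and 11.02 and that of 8 interneuron markers between 11.7 and 11.99.

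The sequences just before the start of these genes are shown beside the array values. The mRNAs of the measured genes other than Aldh3a1 rose and fell together from array to array. Cyp2g1 and Cyp2a5 are neighbours on chromosome 7 with 0 protein-coding genes between them. RefSeq promoters of build GRCm38.p6 matched 5 of the 7 genes, with no entry for Cyp2g1 or Aldh3a1. The 250 bases before the start of the 4 measured ones follow, 5′ to 3′ on the gene's strand. Capitals mark the core TTGGC bound by NFI factors (GCCAA on the other strand) and the TATA box TATAAA. The core of the xenobiotic response element, GCGTG, was searched in the same way on both strands, and none of the marked motifs overlap.
Cyp2a5, chr7:26835089-26835338, plus strand: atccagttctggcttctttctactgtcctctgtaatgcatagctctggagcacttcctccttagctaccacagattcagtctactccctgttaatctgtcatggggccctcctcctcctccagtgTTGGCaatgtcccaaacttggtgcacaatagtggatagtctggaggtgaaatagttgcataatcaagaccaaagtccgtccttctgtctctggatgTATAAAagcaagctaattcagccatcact
Cyp2f2, chr7:27119705-27119954, plus strand: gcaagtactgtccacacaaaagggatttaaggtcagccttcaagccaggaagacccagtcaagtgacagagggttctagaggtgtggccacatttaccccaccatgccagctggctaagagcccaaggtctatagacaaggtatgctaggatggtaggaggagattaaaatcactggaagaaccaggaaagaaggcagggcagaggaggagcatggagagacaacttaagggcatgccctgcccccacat
Cyp1a2, chr9:57683656-57683905, minus strand: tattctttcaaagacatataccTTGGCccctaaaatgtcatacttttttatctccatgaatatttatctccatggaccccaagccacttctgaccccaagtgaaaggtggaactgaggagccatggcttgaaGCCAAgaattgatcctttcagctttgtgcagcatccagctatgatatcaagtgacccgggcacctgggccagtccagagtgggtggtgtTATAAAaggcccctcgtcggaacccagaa
Cbr2, chr11:120732022-120732271, minus strand: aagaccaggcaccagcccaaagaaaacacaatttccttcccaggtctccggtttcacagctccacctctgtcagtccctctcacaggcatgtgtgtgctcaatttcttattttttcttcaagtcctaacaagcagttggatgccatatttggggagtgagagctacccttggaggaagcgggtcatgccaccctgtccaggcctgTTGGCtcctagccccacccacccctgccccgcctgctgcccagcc

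TTGGC was found before Cyp2a5, Cyp1a2, Cbr2 and Ugt2a1, 4 of the 5 genes with an entry, against 41.5% of 32851 RefSeq gene starts searched over the same length. TATAAA was found in 3 of the 5, Cyp2a5, Cyp1a2 and Ugt2a1, against 12.4% of all starts. Its first base stood 29 bases before the start in both Cyp2a5 and Cyp1a2, but 168 bases before it in Ugt2a1. GCGTG was found in 0 of the 5 windows and in 28.2% of all. Of the 5 genes, Ugt2a1 had no array value, and any part of these motifs in the mRNA levels was not tested. The sequence before Cyp2a5 was 98.4% identical over 249 aligned bases to that of Cyp2a4, its near-identical paralog. Probe sequences were not used here, so signal shared between these 2 genes on the array cannot be told apart.

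Some arrays stood apart. Hybridization controls are transcripts added to each sample before hybridization. Their mean was 12.5 in WT 6 months replicate 2 and 12.1 in replicate 3 of that group. It was 11.3 to 11.7 on the other 10 arrays. Array medians lay between 8.24 and 8.27, and correlations between arrays ran from 0.978 to 0.995. On Tg2576 2 months replicate 3, 14 of 15 olfactory sensory neuron markers, 13 of 13 leptomeningeal markers (the membrane that covers the bulb) and 6 of 9 supporting cell markers had their highest value, against 12.5% of all symbols. Each comparison is therefore also given without single arrays.

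Cyp2g1, a P450 known for its almost exclusive expression in olfactory mucosa, read 9.37, 10.14 and 10.48 in WT mice of 2 months (replicates 1 to 3) and 9.79, 9.41 and 12.08 in Tg2576 mice of that age. At 6 months it read 8.73, 6.25 and 6.00 in WT mice and 6.43, 9.20 and 10.35 in Tg2576 mice. The highest array was Tg2576 2 months replicate 3, and 3 arrays of 6-month mice lay below every 2-month array by more than 2 log2 units. The WT groups of the 2 ages did not overlap, while the groups of the 2 genotypes overlapped at both ages.

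Cyp2a5, which oxidizes coumarin and nicotine and is abundant in mouse nasal mucosa and inducible in liver, was high and low on mostly the same arrays. It read 9.93, 11.41 and 11.25 in WT and 11.20, 10.51 and 12.74 in Tg2576 mice of 2 months. It read 10.17, 7.52 and 6.63 in WT and 8.06, 11.05 and 11.17 in Tg2576 mice of 6 months. WT 6 months replicate 1 was above the lowest WT array of 2 months, so here the WT groups of the 2 ages overlapped. Over the 12 arrays Cyp2a5 spanned 6.11 log2 units, a 68.9-fold range, and Cyp2g1 spanned 6.07, a 67.4-fold range. These were the widest and second widest ranges of all 19505 symbols, whose median range was 0.56.

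Cyp1a2, which oxidizes aromatic amines and is induced through the aryl hydrocarbon receptor, read 6.49, 7.58 and 7.86 in WT and 7.66, 6.96 and 9.73 in Tg2576 mice of 2 months. At 6 months it read 6.89, 6.46 and 5.89 in WT and 6.16, 7.44 and 7.21 in Tg2576 mice. Only Tg2576 2 months replicate 3 exceeded 8, by 1.86 above the next array. The groups overlapped between genotypes at each age and between ages in each genotype. Cyp2f2, a P450 of club cells and nasal mucosa that activates naphthalene, moved less. It read 8.28, 8.37 and 8.74 in WT and 8.37, 8.54 and 9.63 in Tg2576 mice of 2 months. At 6 months it read 8.39, 7.66 and 8.06 in WT and 8.10, 8.44 and 8.79 in Tg2576 mice. Its range was 1.96 (rank 55 of all symbols) and that of Cyp1a2 was 3.84 (rank 5).

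Cbr2, a carbonyl reductase of mouse airway cells, read 9.45, 9.86 and 10.26 in WT and 9.81, 9.91 and 11.77 in Tg2576 mice of 2 months. At 6 months it read 8.44, 8.28 and 8.55 in WT mice and 8.84, 9.48 and 9.82 in Tg2576 mice. The 3 WT arrays of 6 months were the lowest of the 12 and close together (SD 0.14), including replicate 1, where Cyp2g1 (8.73) and Cyp2a5 (10.17) were higher than on the other WT arrays of that age. The range of Cbr2 was 3.49 (rank 6). Aldh3a1, which oxidizes aldehydes and is known for its abundance in the cornea, was the exception. It read 7.55, 7.43 and 7.79 in WT and 7.30, 7.78 and 7.58 in Tg2576 mice of 2 months, and 7.63, 7.14 and 7.42 in WT and 7.43, 7.50 and 7.16 in Tg2576 mice of 6 months. Its range of 0.65 ranked 6585, wider than that of 66.2% of symbols, and its order of arrays was another one. The mean of Aldh3a1 over the 12 arrays, 7.48, was above that of 33.8% of symbols, against 29.1% for Cyp1a2 (mean 7.19). Whether the signal of Aldh3a1, or of Cyp2g1 and Cyp2a5 on their lowest arrays, stood above background was not tested.

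**Figure D1:**
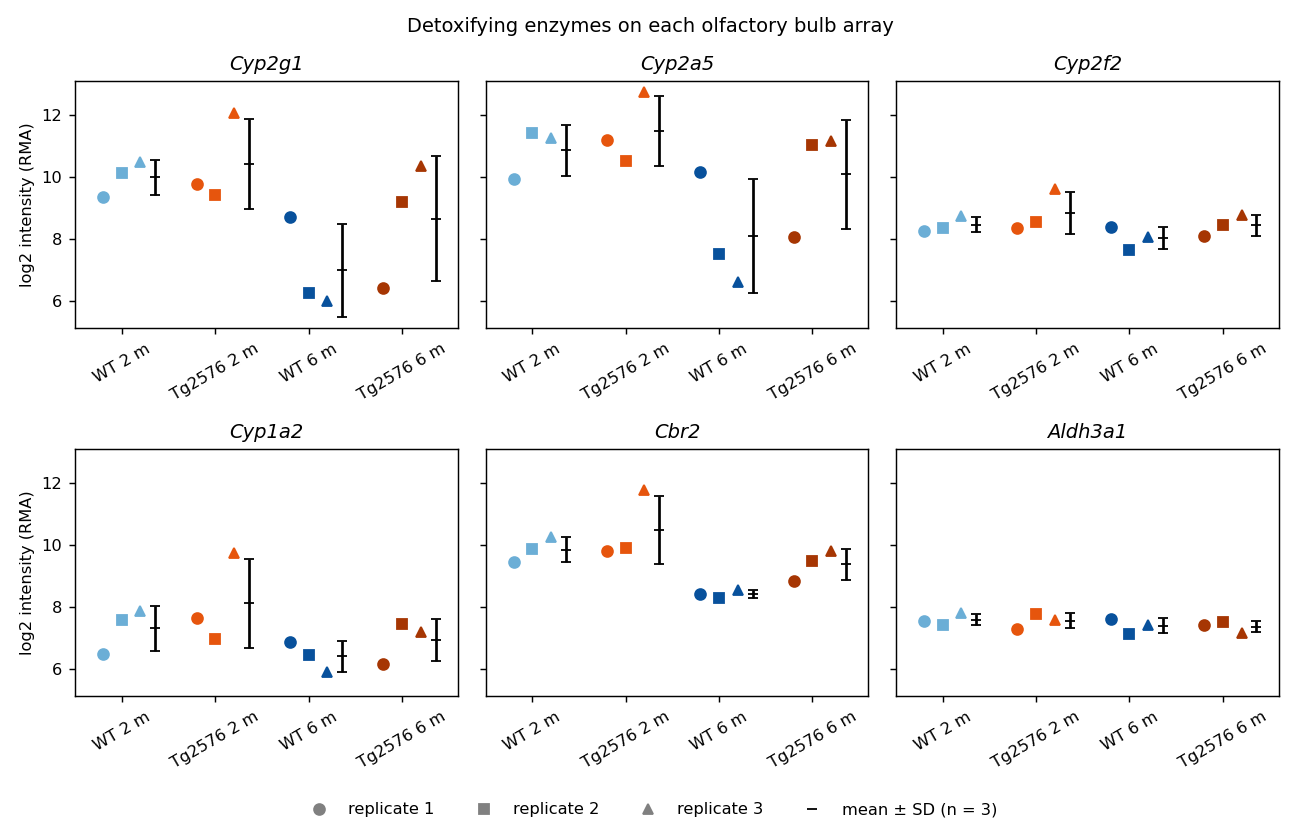
Log2 intensity (y axis) of the 6 measured enzymes in the 4 groups (x axis), with 1 point per array, its shape giving the replicate, and a bar for the group mean ± SD (n = 3). Tg2576 2 months replicate 3 is highest for 5 of the 6 genes, Cyp2g1 and Cyp2a5 are low on WT 6 months replicates 2 and 3 and Tg2576 6 months replicate 1, and Aldh3a1 is nearly level.

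Across the 12 arrays Cyp2g1 and Cyp2a5 had a Pearson correlation of 0.97, and their difference within an array varied with an SD of only 0.43. The other pairs among the 5 genes without Aldh3a1 correlated at 0.81 to 0.91, and Aldh3a1 correlated with them at 0.24 to 0.39. The 12 arrays share tissue, chip and normalization, so these values are descriptions. Tg2576 2 months replicate 3 was the highest array for 5 of the 6 genes. The lowest array was WT 6 months replicate 2 for Cyp2f2, Cbr2 and Aldh3a1, and replicate 3 of that group for the other 3 genes. Over all symbols, WT 6 months replicate 2 was lowest for 19.1%, highest for 16.5% and farthest from the median for 23.8%. Each was the largest share of any array. WT 6 months replicate 3 was lowest for 11.4% of all symbols. After centring each gene on its own mean, the mean of the 6 genes was 1.95 on Tg2576 2 months replicate 3 and at most 0.76 elsewhere. It was -1.42 and -1.54 on WT 6 months replicates 2 and 3 and -1.13 on Tg2576 6 months replicate 1, where 0 of the 6 genes were above their own mean. Hybridization controls were high on the first pair of these and read 11.4 on the third.

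A single array carried much of the variation. Tg2576 2 months replicate 3 alone held 57.1% of the sum of squares of Cyp1a2 around its mean, 54.8% of that of Cyp2f2 and 48.9% of that of Cbr2. For Cyp2g1 it held 24.0%, close to the 23.4% on WT 6 months replicate 3. For Cyp2a5 the largest share, 33.8%, was on WT 6 months replicate 3. Differences among mice of the same group made up 32.4% of the sum of squares of Cbr2, 44.8% to 61.4% of that of the 4 P450s and 76.5% of that of Aldh3a1, against a median of 68.7% over all symbols.

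At 2 months none of the enzymes separated Tg2576 from WT mice. The group means were 10.43 ± 1.44 (SD, n = 3) in Tg2576 and 9.99 ± 0.57 (SD, n = 3) in WT mice for Cyp2g1, a difference of 0.43 (95% interval -1.51 to 2.38). Cyp1a2 differed by 0.80 (-0.40 to 2.01), Cbr2 by 0.64 (-0.22 to 1.499), Cyp2a5 by 0.62 (-1.29 to 2.54), Cyp2f2 by 0.38 (-0.22 to 0.99) and Aldh3a1 by -0.04 (-0.37 to 0.30). A call needed both a fold change past 1.3 (higher) or 0.7 (lower) and a limma p, before adjustment, of less than 0.01. By this rule 0 of the 6 were called, against 0.572% of all gene probesets, and Cbr2 had the lowest p (limma adjusted p = 0.856 after Benjamini-Hochberg adjustment over all probesets). The groups overlapped for all 6, while 9.96% of probesets had groups that did not. The median difference of 0.53, against 0.01 over all probesets, rested on 1 array. Without Tg2576 2 months replicate 3 the difference was -0.01 for Cyp2a5, -0.01 for Cyp2f2, 0.00 for Cbr2, -0.0018 for Cyp1a2 and -0.39 for Cyp2g1.

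At 6 months 5 of the 6 enzymes were higher on average in Tg2576 mice, and 0 were called, against 1.04% of all probesets. Cyp2a5 was 10.09 ± 1.76 (SD, n = 3) in Tg2576 and 8.11 ± 1.84 (SD, n = 3) in WT mice, a difference of 1.99 (95% interval 0.072 to 3.90, limma adjusted p = 0.566). Cyp2g1 differed by 1.67 (-0.28 to 3.61, limma adjusted p = 0.631). Cbr2 was 9.38 ± 0.50 (SD, n = 3) against 8.42 ± 0.14 (SD, n = 3), a difference of 0.96 (0.10 to 1.82, limma adjusted p = 0.543). It was the only one of the 6 whose genotype groups did not overlap, as was so for 14.8% of probesets. Cyp1a2 differed by 0.52, Cyp2f2 by 0.41 and Aldh3a1 by -0.03, all with intervals that included 0. The median of the 6 was 0.74, against 0.01 over all probesets.

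These differences at 6 months moved with single arrays of both genotypes. Without Tg2576 6 months replicate 1 the difference rose to 2.78 for Cyp2g1 and to 3.00 for Cyp2a5, and both passed the call. Without WT 6 months replicate 1, Cyp2a5 passed as well, at 3.02. The lowest values were 0.82 for Cyp2g1, without Tg2576 6 months replicate 3, and 1.25 for Cyp2a5, without WT 6 months replicate 3. Without WT 6 months replicates 2 and 3, the arrays with high hybridization controls, the difference was -0.072 for Cyp2g1 and -0.078 for Cyp2a5. That exclusion was chosen after the data were seen and leaves 1 WT mouse, assumed to vary like the other groups. Cbr2 remained between 0.74 and 1.23 when any 1 array was left out. Without Tg2576 2 months replicate 3 its difference was the same and its error smaller, and it passed the call. The genotype difference itself did not change detectably with age: 0 of the 6 were called in that test, against 0.779% of probesets, with Cyp2a5 at 1.36 (95% interval -1.34 to 4.07) and Cyp2g1 at 1.23 (-1.52 to 3.98). Both genotype comparisons at an age and both age comparisons share arrays with this one.

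In WT mice all 6 enzymes were lower on average at 6 than at 2 months, and 3 of them passed the call. Cbr2 fell by 1.44 on the log2 scale (95% interval -2.29 to -0.58, 2.70-fold lower), Cyp2g1 by 3.00 (-4.95 to -1.06, 8.01-fold) and Cyp2a5 by 2.76 (-4.67 to -0.84, 6.76-fold). With these, 3 of the 6 were called lower, against 0.293% of all probesets called in that direction and 1.74% called in either. Their limma adjusted p-values over all probesets were 0.25 for Cbr2, 0.264 for Cyp2g1 and 0.282 for Cyp2a5, so none passed 0.05. The enzymes were listed with earlier results of these arrays known, and Cyp2g1 and Cyp2a5 correlated at 0.97. The count of called enzymes is therefore a description and not a test of the list. The groups did not overlap for 2 of the 6, Cyp2g1 and Cbr2, against 6.16% of probesets in the same direction. Cyp1a2 differed by -0.90, Cyp2f2 by -0.43 and Aldh3a1 by -0.19, which did not pass the test. Low WT readings at 6 months, such as 6.00 and 6.25 for Cyp2g1 and 6.63 for Cyp2a5, lay below the array medians. Whether these readings stood above background was not tested. In bulk tissue, fewer cells of a type, less RNA per cell and less nasal tissue carried along with the bulb cannot be told apart.

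Of the 12 fits that each left out 1 array, Cbr2 kept its call in 10, Cyp2g1 in 8 and Cyp2a5 in 7. Cyp2g1 lost it without either of WT 2 months replicates 2 and 3 or WT 6 months replicates 2 and 3, where its difference lay at -2.51 or lower. Cyp2a5 lost it without the same arrays, at -2.02 or lower, and without Tg2576 2 months replicate 1. Cbr2 lost it in 2 fits, those that left out replicate 3 of the WT mice of 2 months or replicate 2 of the WT mice of 6 months. Without both WT arrays with high hybridization controls the difference was -1.26 for Cyp2g1 and -0.69 for Cyp2a5, and none of the 3 was called, while Cbr2 stayed at -1.42. With the hybridization controls as a covariate, also chosen after the data were seen, the values were -1.87 for Cyp2g1, -1.58 for Cyp2a5 and -1.23 for Cbr2, and none was called. What part the controls' level has in the lower values was not tested beyond these 2 fits.

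In Tg2576 mice all 6 were also lower on average at 6 than at 2 months, but 0 were called, against 0.527% of probesets, and the groups of all 6 overlapped, as for all but 14.2% of probesets. Cyp2g1 differed by -1.77 (95% interval -3.71 to 0.18), Cyp2a5 by -1.39 (-3.31 to 0.52), Cyp1a2 by -1.18 (-2.39 to 0.02) and Cbr2 by -1.11 (-1.97 to -0.26, limma adjusted p = 0.848). Single arrays of both ages moved these values. Without Tg2576 2 months replicate 3, Cyp1a2 was -0.38, Cbr2 -0.48 and Cyp2f2 -0.01, and without Tg2576 6 months replicate 1 Cyp2a5 was -0.37 and Cyp2g1 -0.65. Without Tg2576 2 months replicate 2 both Cbr2 and Cyp1a2 passed the call, and without Tg2576 2 months replicate 1 or Tg2576 6 months replicate 3 Cbr2 alone did.

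**Figure D2:**
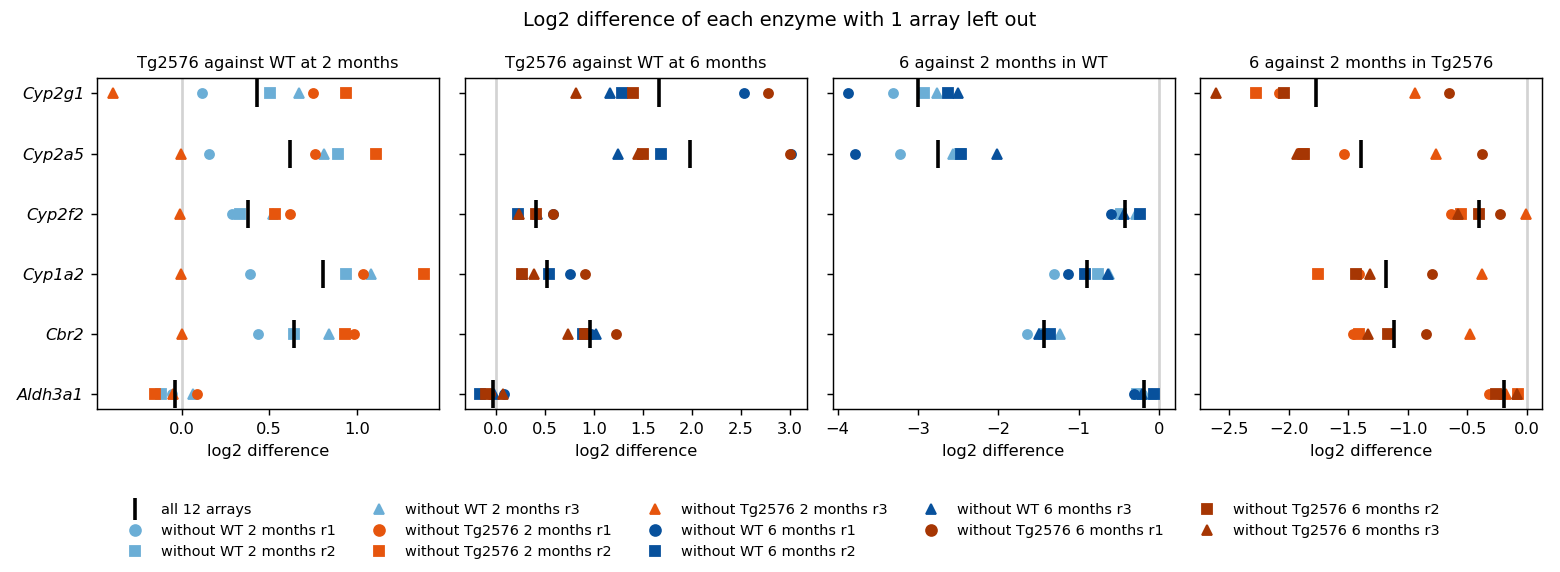
Log2 difference (x axis) of each enzyme (y axis) in 4 comparisons, with all 12 arrays as a black bar and with 1 array left out as a point coloured by group and shaped by replicate; fits that leave the difference unchanged are not drawn. At 2 months the differences of Cyp2a5, Cyp2f2, Cyp1a2 and Cbr2 are at about 0 without Tg2576 2 months replicate 3, and at 6 months those of Cyp2g1 and Cyp2a5 lie between 0.82 and 3.02.

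Markers of nasal tissue moved with the enzymes on some arrays. The mean of 20 markers of nasal glands and secretions, whose cells make the fluid that bathes the odorant receptors, lay at 7.25 to 7.37 in WT and 7.34 to 7.95 in Tg2576 mice of 2 months. At 6 months it lay at 6.87 to 7.47 in WT and 7.02 to 7.69 in Tg2576 mice. It was highest on Tg2576 2 months replicate 3 and lowest on WT 6 months replicate 3, as for Cyp2a5, and 8 of the 20 were highest on the former. Among the 4 brightest, Gpx6, a glutathione peroxidase of the olfactory mucosa, and the secreted lipid-binding protein gene Bpifb3 spanned 3.46 and 3.03 log2 units and were highest there. Bpifb9b spanned 1.80 and was highest on Tg2576 6 months replicate 2, and Sox9 spanned 0.40. The part of carried nasal tissue in the enzyme values was not tested.

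The 15 olfactory sensory neuron markers averaged 8.56 to 9.51 in Tg2576 and 8.59 to 8.82 in WT mice of 2 months, and 8.36 to 8.57 in WT and 8.66 to 8.88 in Tg2576 mice of 6 months. Their brightest members Stoml3, Gnal, S100a5 and Gng13 were all highest on Tg2576 2 months replicate 3, and Stoml3, a protein of sensory cilia, read 12.2 there and 10.2 to 11.4 elsewhere. The 9 supporting cell markers ranged from 8.31 to 8.77 in Tg2576 and 8.34 to 8.38 in WT mice of 2 months, and from 8.08 to 8.33 in WT and 8.28 to 8.35 in Tg2576 mice of 6 months. Of their 4 brightest, Notch2 and Cdh1 were highest on Tg2576 2 months replicate 3 and Sox2 and Ezr were not. None of the measured genes of these 3 lists was called in any of the 5 comparisons. Leptomeningeal markers averaged 7.87 to 8.36 in WT and 8.45 to 9.05 in Tg2576 mice of 2 months, and Omd, Ogn and Igf2, 3 of 13, were called higher at that age (1.11, 1.06 and 0.65), against 0.572% of all probesets called in either direction. At 6 months they averaged 7.98 to 8.38 in WT and 8.25 to 8.36 in Tg2576 mice. On WT 6 months replicates 2 and 3, where Cyp2g1 was near 6, the leptomeningeal mean was not at its lowest.

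Several of these P450s are also abundant in liver. Hepatocyte markers stayed low, with means of 6.77 to 7.07 over the 12 arrays, all 7 genes below the array median, and 1 of 7 highest on Tg2576 2 months replicate 3. Nasal basal cell markers ranged from 7.18 to 7.39, with 0 of 5 highest there. Choroid plexus markers ranged from 7.30 to 7.84 and ciliated cell markers, also ependymal, from 6.59 to 7.26. Both means were highest on Tg2576 2 months replicate 3, with 2 of 5 and 4 of 8 genes highest there, and lowest on WT 6 months replicate 2. The means of the ensheathing glia, vomeronasal neuron, erythrocyte, bone and cartilage, and bulb neuron lists were highest on other arrays. The 9 markers of border macrophages averaged 7.50 to 7.66 in WT and 7.67 to 7.90 in Tg2576 mice of 2 months. At 6 months they averaged 7.50 to 7.58 in WT and 7.59 to 7.65 in Tg2576 mice. Their mean was highest on Tg2576 2 months replicate 3, where 3 of the 9 were highest, and lowest on WT 6 months replicate 1. In WT mice by age 1 of the 9 was called lower, against 0.293% of all probesets called in that direction. At 2 months 1 was called higher in Tg2576 mice, against 0.572% in either direction. The part of these cell types in the enzyme values was not tested.

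**Figure D3:**
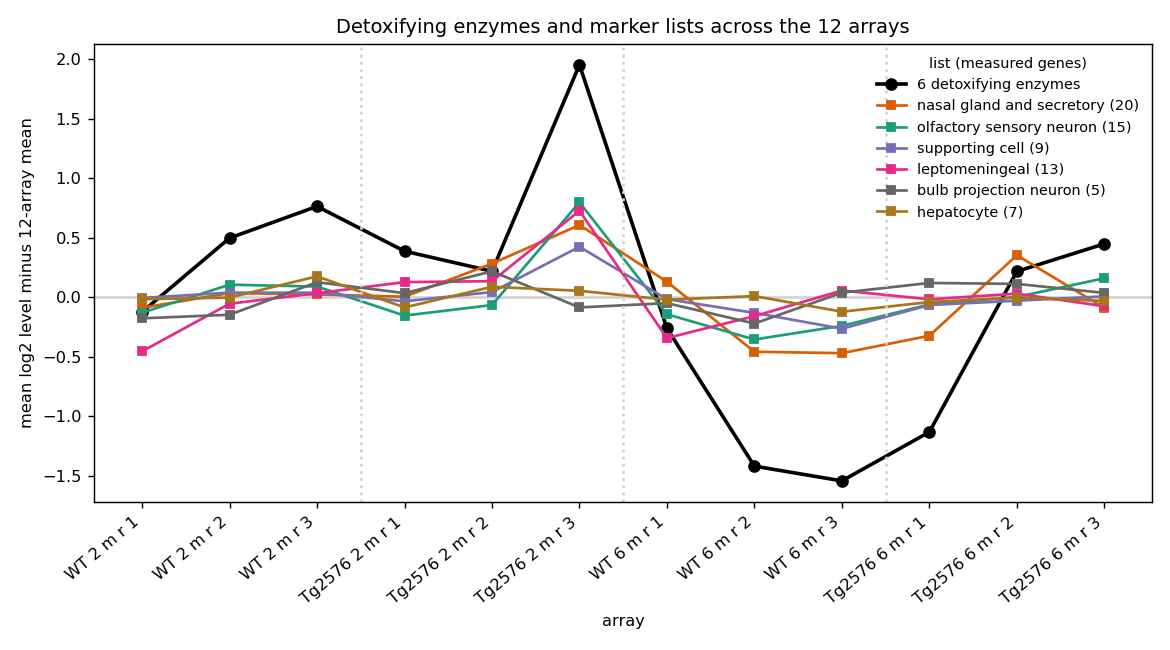
Mean log2 level of each list on each array, each gene centred on its 12-array mean (y axis), for the 6 enzymes and 6 marker lists over the 12 arrays (x axis); lines join arrays only to follow a list. The enzymes reach 1.95 on Tg2576 2 months replicate 3, where the sensory neuron, leptomeningeal, gland and supporting cell lists are also at their highest, and -1.42 and -1.54 on WT 6 months replicates 2 and 3.

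A wider set of 86 xenobiotic-metabolizing genes, of which 78 were measured, holds other P450s, conjugating enzymes, aldehyde, ketone and ester converting enzymes, and the redox partners and receptors of P450s. Of the 78, 1 was called higher and 0 lower in Tg2576 mice at 2 months, the glutathione transferase Gstm1 (difference 0.45, standard error 0.14), against 0.572% of all probesets in either direction. At 6 months 0 were called in either direction, against 1.04%. The oestrogen sulfotransferase Sult1e1 was called for a more positive genotype difference at 6 months (0.60, standard error 0.20), 1 of 78 against 0.779% of probesets. In WT mice 1 rose from 2 to 6 months, Nfic, a member of the NFI family whose core is marked above (0.42, standard error 0.13), and 0 fell, against 1.74% of probesets called. In Tg2576 mice 0 were called between ages, against 0.527%. These counts are near the shares over all probesets. The median difference of the 78 genes lay between -0.07 and 0.11 in the 5 comparisons.

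Some of these 78 nonetheless followed the enzymes on the array where they were highest: 29 of 78 (37.2%) had their highest value on Tg2576 2 months replicate 3, against 12.5% of all symbols. Over 1 log2 unit was spanned by 11 of the 78, against 6.26% of all symbols, and 9 of these 11 were highest there. They were picked out after their values were seen, and include the sulfotransferase Sult1c1 (8.06 on that array and at most 6.27 elsewhere), Cyp2a4, the carboxylesterase Ces1d (8.91 against at most 7.66) and the sulfotransferase Sult1d1. Cyp2a4, the paralog of Cyp2a5, read 7.08, 8.11 and 8.31 in WT and 7.88, 7.78 and 9.62 in Tg2576 mice of 2 months, and 7.55, 7.46 and 6.84 in WT and 7.03, 7.99 and 8.14 in Tg2576 mice of 6 months. Its range of 2.77 was 17th of all symbols. More general enzymes such as Fmo1, a flavin monooxygenase, and Mgst1, a membrane glutathione transferase, shared the highest and lowest arrays of Cyp2a5 over ranges of 1.09 and 1.16.

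By Pearson correlation with the mean of the 6 enzymes over the 12 arrays, the most similar of the other 19499 symbols were Vmo1 (0.94), the secreted lipid-binding protein gene Bpifb4 (0.94), the metal ion transporter gene Slc39a14 (0.93), Xlr5b (0.93), Gadl1 (0.93), Sec14l3 (0.92), Atp6v0e (0.91), Mpdu1 (0.91), Cldn13 (0.91) and Umodl1 (0.91). All 10 were highest on Tg2576 2 months replicate 3. Without that array and WT 6 months replicate 3 their correlations were between 0.81 and 0.90. A correlation above 0.9 was found for 14 symbols, 0.0718% of those ranked. Most of the 10 moved little, with Mpdu1 spanning 0.33, whereas Vmo1 went from 6.61 to 11.4 and Bpifb4 from 6.61 to 11.2, the third and the fourth widest ranges of all symbols. Of the next 6, Cyp1a2, Cbr2, Gpx6, Bpifa6 and Bpifb6 were highest on the same array, and Tfap2d was highest on Tg2576 6 months replicate 3. Taken 1 gene at a time, the most similar were Xlr5b, Scn4b and Umodl1 for Cyp2g1, Mpdu1, Il1b and Scn4b for Cyp2a5, Ano2, Gfy and Llgl2 for Cyp2f2, Cyp2a4, Vmo1 and Chil6 for Cyp1a2, and Gadl1, Fmo6 and Lrguk for Cbr2. For Aldh3a1 they were Hnrnpll, Klk1 and Ctf1, none of which was among the first 3 for another of the 6.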

How the data were processed

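OB mRNA of 12 female mice was measured on Affymetrix Mouse Clariom S arrays, labelled from 1 ng of total RNA. The authors deposited log2 intensities made by RMA, which subtracts background, quantile-normalizes the arrays and summarizes probes; no version of it is stated in the sources used here. Quantile normalization gives all arrays the same distribution, and values of different genes cannot be compared as amounts. The labels give the younger mice an age of 2 months, which is used here, whereas a sample table of the study makes them 1 month older; this difference was not resolved.

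Using R 4.3.3, limma 3.58.1 and statmod 1.5.0, a model of 4 group means was fitted over the 12 arrays to 22206 gene probesets, after leaving out 6923 control probesets. Genes were named through the platform annotation, which gave 19572 probesets 1 symbol and 2634 none. Calls needed p below 0.01 before adjustment and a fold past 1.3 upward or 0.7 downward (no fold limit for the difference between ages), and Benjamini-Hochberg values over all probesets stand beside them. Replicates are separate mice, and their number limits the precision. The enzymes and the 19 gene lists (227 entries, 205 measured, 1 by a synonym) were chosen with earlier results of these data known. From each list, the genes called in any comparison (at most 4) and the 4 with the highest mean could be named, besides the 10 symbols most similar to the enzymes and 3 for each enzyme. Promoters were read from RefSeq and aligned with Biopython 1.88, and plots drawn with matplotlib 3.10.9. A planned comparison of proteins was not run. Tested on simulated data for the comparison at 2 months, the fit recovered 82% of 50 probesets changed by 0.5 and 100% at 1. It recovered 34% at -0.5 and 100% at -1, and called 90 of 22006 unchanged ones. A change of -0.5 falls just short of the lower fold limit. The standard errors in that comparison were 0.91 for Cyp2g1, 0.89 for Cyp2a5 and 0.56 for Cyp1a2. Recovery over 50 probesets therefore cannot be carried over to these enzymes. Alternatives were a fit to 2 groups, a trended robust prior, array weights, median centring, cyclic loess, a filter on dim probesets, marker means or hybridization controls as covariates, a replicate block, other limits and leaving out arrays.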

Additional observations from a re-analysis of the deposited data

How the results depend on the processing

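Of 788 values of the 6 enzymes under alternatives, 698 kept their direction and side of the threshold, 27 lost a call, 16 gained one and 47 changed sign. At 6 months the count of called enzymes in Tg2576 against WT mice, 0 here, was 1 in a fit to the 2 groups, 1 with the replicate number as a block (Cbr2) and 2 at p under 0.05, and 0 to 2 with 1 array left out. In WT mice by age, 3 called fell to 0 with a trended robust prior, to 1 each with array weights and with the sensory neuron or nasal gland mean as a covariate, to 0 in either fit added after the data were seen (hybridization controls as a covariate, or without both WT 6 months arrays with high controls) and to 0 to 3 with 1 array left out. In Tg2576 mice by age it was 1 with array weights, the block, the sensory neuron covariate or p under 0.05, and 0 to 2 with 1 array left out. The median in WT mice by age was -2.10 over probesets above the median level, which leaves out Cyp1a2 and Aldh3a1, and that in Tg2576 mice by age was -0.34 with the leptomeningeal and -0.29 with the nasal gland covariate. The median share of the sum of squares on Tg2576 2 months replicate 3 was 75.1% on linear intensities.

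The sign changed in the following fits, and the cause was not tested. At 2 months the leptomeningeal covariate gave -0.28 for Cyp2g1, -0.13 for Cyp2f2, -0.42 for Cyp1a2 and -0.39 for Cbr2, the sensory neuron covariate -0.18 for Cyp2g1, the nasal gland covariate -0.76 for Cyp2g1 and -0.65 for Cyp2a5, and array weights 0.060 for Aldh3a1. At 6 months Cyp1a2 was -0.25 with the sensory neuron and -0.0092 with the nasal gland covariate, Cyp2f2 -0.0018 with hybridization controls, and Cyp2g1 -0.072 and Cyp2a5 -0.078 without the WT arrays with high controls. In the difference between ages, array weights gave -0.080 for Cyp2f2 and -0.15 for Aldh3a1, the leptomeningeal covariate 0.62 for Cyp1a2, the sensory neuron covariate -0.13 for Cyp2f2 and -0.0065 for Aldh3a1, and the hybridization controls -0.36 for Cyp2f2 and -0.15 for Aldh3a1. Without the WT arrays with high controls it was -0.50 for Cyp2g1, -0.70 for Cyp2a5, -0.33 for Cyp2f2 and -0.23 for Aldh3a1, and Aldh3a1 in WT mice by age was 0.037.

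With 1 array left out, values that could change sign ran -0.15 to 0.090 for Aldh3a1, -0.39 to 0.94 for Cyp2g1, -0.0060 to 1.11 for Cyp2a5, -0.010 to 0.62 for Cyp2f2, -0.0018 to 1.38 for Cyp1a2 at 2 months, -0.16 to 0.084 for Aldh3a1 at 6 months, -0.86 to 0.53 for Cyp1a2, -0.21 to 0.42 for Cyp2f2, -0.12 to 0.12 for Aldh3a1, -0.023 to 0.96 for Cbr2 in the difference between ages.

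Same-numbered mice varied together weakly at most. Of 12 such pairs of arrays, 3 correlated over 0.1 (range -0.22 to 0.18), and 6 arrays correlated best with their own number. In Tg2576 mice by age all 3 did so, at 0.019, 0.084 and 0.107. The labels do not say that the numbers pair mice, so they are not taken to. With the block the counts of called enzymes were 0, 1, 0, 2 and 1 in the 5 comparisons, in the order genotype at 2 months, genotype at 6 months, their difference, age in WT and age in Tg2576. Calls over all probesets were 127 at 2 months (51 to 588 over the alternatives), 232 at 6 months (80 to 654), 173 for their difference (60 to 759), 387 in WT by age (126 to 858) and 117 in Tg2576 by age (59 to 220).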

Other observations

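Nasal secretory genes were not all high on the same array. The genes below were picked after their values were seen. The odorant-binding protein gene Obp2a read 7.98 on Tg2576 2 months replicate 2 and 7.23 on Tg2576 6 months replicate 2, and 5.39 to 5.79 on the other 10 arrays. Obp1a read 6.87 on Tg2576 6 months replicate 2 and at most 4.85 elsewhere, and the lipocalin gene Lcn11 was also highest there, at 7.50. On Tg2576 2 months replicate 3, where the detoxifying enzymes, Gpx6 (11.3) and Scgb1c1 (9.65) were highest, Obp2a was 5.51, Obp1a 4.73 and Lcn11 6.25. Cyp2a5 read 10.51 and 11.05 on the 2 arrays with high Obp2a, within the range of the arrays without it.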
